A study of Mus musculus with 4 samples.

Results

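The expression of 9 genes that work in the making of red blood cells was followed in the liver of microsomic (M) and control (C) mice: the transcription factors *Gata1*, *Klf1*, *Nfe2* and *Tal1*, the receptors *Epor* and *Tfrc*, the membrane protein *Slc4a1*, the haemoglobin chaperone *Ahsp* and the nuclear protein *Hemgn*. They were taken by name, as all non-control rows that carry one of these 9 gene names, out of 36161 names on the array. The names were chosen with earlier results of these data known. The 4 groups, females and males of low birth weight (MF and MM) and of normal birth weight (CF and CM), had 1 array each. The labels give whole liver of C57BL/6J mice at embryonic day 20, whereas the paper describes newborn C57BL/6 N mice. Microsomia was a birth weight in the low tail of the colony for that sex, with littermates of near average weight as controls, so no group carries a mutation or a treatment. Whether the RNA on an array was pooled from several animals is not given in the sources used here.

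The liver is the main site of red blood cell formation in the fetus and hands this role over to the bone marrow around birth. GATA1, TAL1 and KLF1 switch on the red cell programme together, and NFE2 acts on the globin genes and also in megakaryocytes, the cells that shed platelets. Erythropoietin, bound by the receptor EPOR, keeps precursors alive through the kinase JAK2 and the factor STAT5, and the transferrin receptor TFRC brings in the iron for haem. Late in maturation the cells make band 3 (SLC4A1), the anion exchanger that ties the membrane to its skeleton, and AHSP, which holds free alpha globin.

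All 9 genes were on the array, with 11 probes in 20 spots, and none of these spots carried an outlier flag or was saturated. Every one of the 9 was well above background on all 4 arrays. The other 8 genes had 1 probe each, and *Tfrc* had 3. A level is the log2 signal of a probe with the 75th percentile of its array taken off, so a level of 0 is the brightness of that percentile, and levels of different probes are not compared. Since a group is 1 array, no spread between animals and no p-value can be given for a pair. What could be measured is the spread between spots: over 297 probes that were printed at 10 spots, the SD of a single-spot difference was 0.36 for MF minus CF, 0.40 for MM minus CM, 0.44 for CM minus CF and 0.33 for MM minus MF. In whole liver RNA, fewer red cell precursors and less RNA per precursor cannot be told apart.

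The arrays differed in ways that touch these genes. The 75th percentile of the signal was 893 on MF and 925 on MM, against 676 on CF and 628 on CM. The M arrays lay in one column of the slide and the C arrays in another, so M or C and the column cannot be told apart. Bright genes had a higher median on MF than on CF: the median MF minus CF difference was 0.60 over the 752 genes with a mean level between 6 and 8, and -0.09 over the 3307 genes between 2 and 4. The same medians for MM minus CM were -0.15 and 0.10. *Xist* was well above background on the female arrays alone and *Ddx3y*, *Eif2s3y* and *Uty* on the male arrays alone, as labelled. The 14 hepatocyte markers checked, with *Alb* among them, were well above background on all 4 arrays, as the label whole liver requires.

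The probes that the results turn on are shown here by 30 of their 60 bases, as deposited and 5′ to 3′, because a single probe stands for each gene except *Tfrc*. Capitals mark windows of 5 bases in which every base is C or T and 3 or more are C. Of 55681 probes on the array, 8.64% held 4 or more such windows. The median MM minus CM difference was taken over probes well above background on all 4 arrays. It was -0.34 for the 2746 of them with 4 or more windows, against 0.06 for the 13594 with no window. The *Slc4a1* probe held 5 windows and the *Epor* probe 2, and the other 9 probes held none.
Slc4a1 (mm9 chr11:102210256-102210315, minus strand): ccatgttttgggcacaccccaTCCTCTCCT
Epor (mm9 chr9:21763422-21763481, minus strand): acttaaagtcagagctgaccttggCCCTCT
Nfe2 (mm9 chr15:103078838-103078897, minus strand): gaaccaaaatggaggctacagattgagctg
Hemgn (mm9 chr4:46407248-46407307, minus strand): taaggctctaacacatagacaatagtgtgt
Tfrc, 10 spots (mm9 chr16:32632255-32632314, plus strand): tgagcaagatcacattaacaaagactagtt
Tfrc, spanning probe (mm9 chr16:32624877-32625093, plus strand): atctctatatagagacagcaattggattag
Tfrc, upstream probe (mm9 chr16:32620470-32620529, plus strand): tcctgctagatggaacatagattcttcatg

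**Figure D1:**
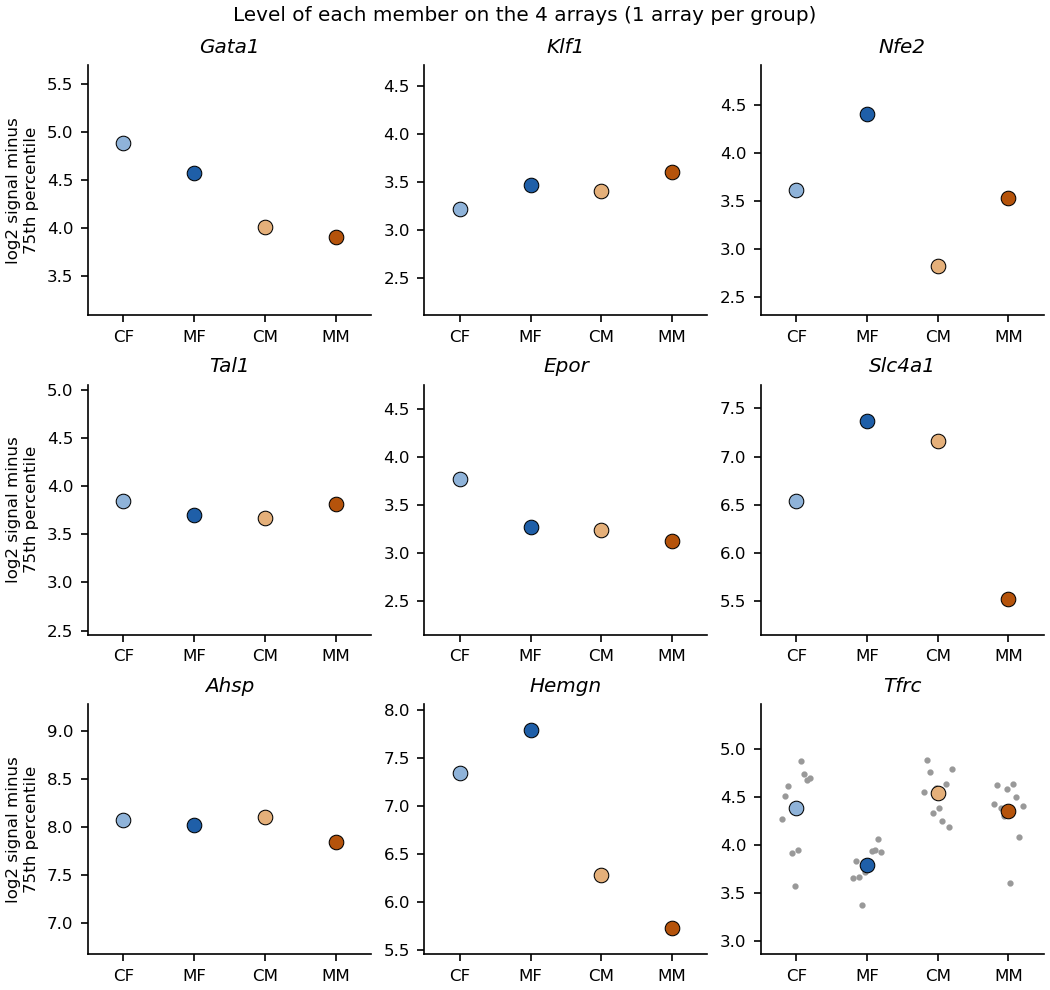
Each panel plots the level of a gene (log2 signal minus the 75th percentile of the array) on the CF, MF, CM and MM arrays, over 2.6 log2 units in every panel, with a large point per array. Grey points in the Tfrc panel are its 10 spots per array. Nfe2 sits higher on the M array in each sex, Slc4a1 is highest on MF (7.37) and lowest on MM (5.52), and Hemgn is higher on both female arrays than on both male arrays.

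The methods select genes by a limma p under 0.01 and then by a fold change over 1.5. With 1 array per group the p filter cannot be applied to a pair, so the 1.5-fold part alone was used here. The counts below are therefore not those of the full criterion. In MF vs CF, *Nfe2* and *Slc4a1* were higher and *Tfrc* lower, 3 of 9, where 40.9% of the 25538 genes compared passed 1.5-fold (19.8% higher and 21.1% lower). In MM vs CM, *Nfe2* was higher and *Slc4a1* lower, 2 of 9, where 40.8% of 26315 genes passed (17.7% higher and 23.1% lower). In MF vs CF the count depended on the scaling, with 4 of 9 past 1.5-fold and all of them lower with quantile normalization, where 38.8% of genes passed. The median of the 9 genes was -0.05 in MF minus CF and -0.12 in MM minus CM, beside -0.08 and -0.03 over the 19303 genes that were well above background on each array. Beyond 2-fold, none of the 9 differed in MF vs CF, where 19.6% of genes did, and *Slc4a1* alone did in MM vs CM, where 22.4% did.

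When both sexes were fitted together with limma, in a model of birth weight group and sex, none of the 19303 genes and so none of the 9 passed an adjusted p of 0.05 (Benjamini-Hochberg), and 853 genes (4.42%) but none of the 9 had an unadjusted p under 0.05. *Nfe2* came closest, at 0.75 with a standard error of 0.41 and an adjusted p of 0.995 in limma. This fit has 1 residual degree of freedom and in simulated data recovered 0 of 200 genes changed by 2 log2 units. It tests only a difference shared by the sexes.

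**Figure D2:**
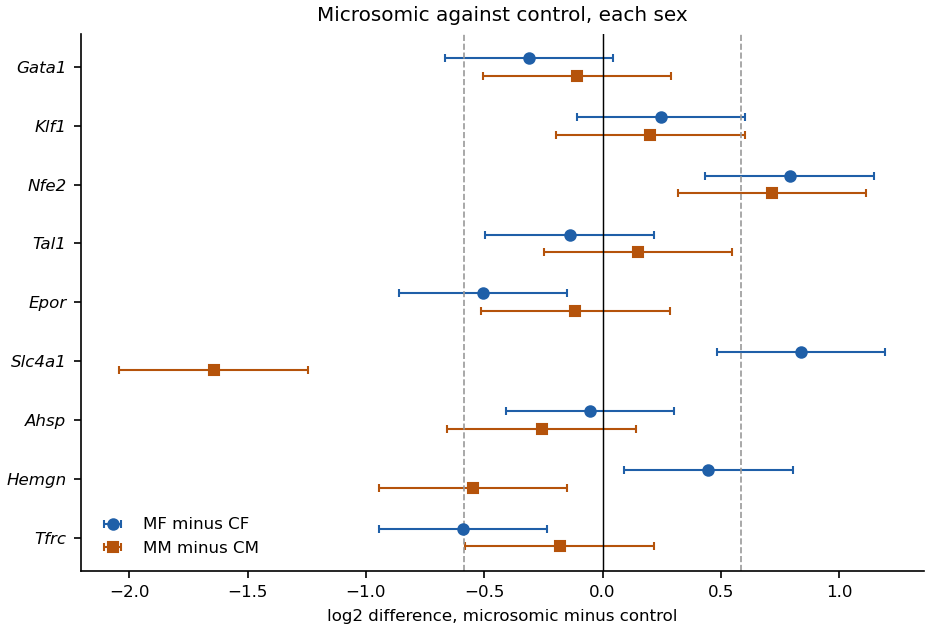
The log2 difference of microsomic minus control is plotted for each gene, circles for MF minus CF and squares for MM minus CM. Bars are the SD of a single-spot difference (0.36 and 0.40), not a spread between animals, and dashed lines mark 1.5-fold. Nfe2 lies above the upper line in both sexes and Slc4a1 lies past the upper line in females and far past the lower line in males.

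*Nfe2*, which encodes the blood cell subunit of NF-E2, a factor of globin gene control and platelet formation, was the one member past 1.5-fold the same way in both sexes. Its level was 4.41 on MF and 3.62 on CF, and 3.54 on MM and 2.82 on CM. MF was 1.73-fold higher than CF and MM 1.64-fold higher than CM, differences of 0.79 and 0.72 that amount to 2.22 and 1.80 SDs of a single spot. The 2 female arrays were also above their male counterparts, so the M and C levels overlapped across sexes, with CF above MM. The difference kept its sign under all 9 alternatives in each sex. It passed 1.5-fold in 6 of 9 in females, down to 0.38 after normexp background correction with quantile normalization (0.52 after quantile normalization alone), and in 8 of 9 in males, down to 0.53 after a trend with the position of the spot was removed. The array holds no other *Nfe2* probe to set beside this one. So the mean over probes could not change its value, and neither could keeping flagged spots, as no member spot carried a flag. These 2 alternatives were bound to agree for each of the 8 genes with 1 probe.

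As scaled here, the other 3 transcription factors lay within 1 SD of a single spot in both M vs C comparisons. *Gata1*, the lead factor of the red cell programme, read 4.57 on MF, 4.88 on CF, 3.91 on MM and 4.02 on CM, which gave -0.31 in females and -0.11 in males. Its female difference was -0.58 against genes of its brightness and -0.67, past 1.5-fold, with quantile normalization. The *Klf1* level, for the factor that drives adult beta globin, was 3.47 on MF, 3.22 on CF, 3.61 on MM and 3.41 on CM, and differed by 0.25 and 0.20. Klf1 was the only gene of the 9 with both M arrays above both C arrays, which held for 11.6% of the 19303 genes. *Tal1*, the partner of GATA1 in blood stem cells and red cells, gave 3.71 on MF, 3.85 on CF, 3.82 on MM and 3.67 on CM, and its differences of -0.14 and 0.15 ran opposite ways. With normexp correction and quantile normalization together the female difference of *Tal1* was -0.63.

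*Epor*, the receptor for erythropoietin, was highest on CF. Its level was 3.27 on MF, 3.77 on CF, 3.13 on MM and 3.24 on CM. The difference was -0.51 in females, 1.42-fold lower on MF, and -0.12 in males. The male sign held under 4 of 9 alternatives. The detrending ratio, by which the scanner software divides each spot, was 1.31 at the *Epor* spot on MM and 0.751 on CM, and with it multiplied back the difference was 0.67. It was 0.60 when normexp correction preceded quantile normalization, and -0.23 with quantile normalization alone.

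*Tfrc*, which imports transferrin iron, was measured by 3 probes that did not give the same answer. The probe at 10 spots had a mean level of 3.80 ± 0.20 on MF, 4.39 ± 0.43 on CF, 4.36 ± 0.31 on MM and 4.54 ± 0.24 on CM (SD over 10 spots of 1 array). By this probe MF was 1.51-fold lower than CF, a difference of -0.59 ± 0.34 (SD over 10 spots), with 1 of 10 spots higher on MF. MM was lower than CM by -0.18 ± 0.30, again with 1 of 10 spots higher. These spots repeat the measurement of the same RNA and are not replicates of the groups. The spanning probe, whose mapped ends lie 217 bases apart, read -1.33 on MF, -1.31 on CF, -0.57 on MM and -1.01 on CM, differences of -0.02 and 0.44. For the upstream probe the levels were -1.76, -1.77, -1.07 and -1.06 in the same order, differences of 0.01 and 0.00. So the lower value on MF was seen with the 10-spot probe alone, and with the mean over the 3 probes the female difference was -0.20. The 10-spot value sits on the threshold: it was past 1.5-fold under 5 of 9 alternatives, and was -0.49 with centring on the median, -0.53 with the position trend removed and -0.19 without scaling. Against genes of its brightness it was -0.86. The 10-spot probe lies farthest along the plus strand, on which the gene is read, and thus nearest its 3′ end.

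*Slc4a1*, the band 3 anion exchanger, had the largest M vs C difference of the 9 genes and opposite directions in the sexes. Its level was 7.37 on MF, 6.53 on CF, 5.52 on MM and 7.16 on CM, so the M arrays held both the highest and the lowest value. MF was 1.79-fold higher than CF (0.84, 2.36 SDs of a single spot) and MM was 3.12-fold lower than CM (-1.64, 4.13 SDs). The difference between the sexes, 2.48, was not tested, since each group is 1 array. The female value stood beside a shift in the median of bright genes, though not in each of them: over the 752 genes with a mean level between 6 and 8 the median MF minus CF difference was 0.60, and *Slc4a1* lay 0.24 above it. After quantile normalization it was 0.04, and after normexp correction with quantile normalization -0.32. The male value lay -1.50 from the median of genes of its brightness and was past 1.5-fold and lower on MM under all 9 alternatives, from -1.67 to -0.89. The smallest of these came with the detrending ratio multiplied back, a ratio that was 1.11 on MM and 0.647 on CM at this spot, a log2 difference of 0.77. The 5 windows of C and T in its probe stand beside the lower MM values of that class of probes, and their part in the result was not tested.

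*Ahsp*, which keeps alpha globin soluble until it meets beta globin, lay within 1 SD of a single spot in all 4 pairs of arrays as scaled here. Its level was 8.02 on MF, 8.07 on CF, 7.85 on MM and 8.11 on CM, with differences of -0.05 and -0.26. Against genes of its brightness the female difference was -0.61 and the male 0.06. With quantile normalization *Ahsp* was past 1.5-fold lower on MF than on CF (-0.84) and past it higher on MM than on MF (0.81), and with normexp correction added MF minus CF was -0.67. The file gives no position for this probe. *Ahsp* and *Tfrc* were the 2 genes with both M arrays below both C arrays, which held for 16.5% of the 19303 genes.

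*Hemgn*, hemogen, a nuclear protein of blood progenitors and red cell precursors, was set apart by sex more than by birth weight. It read 7.79 on MF, 7.34 on CF, 5.73 on MM and 6.28 on CM, so both female arrays were above both male arrays. M minus C was 0.45 in females and -0.55 in males, both under 1.5-fold. Over genes of its brightness the female median was again 0.60, and *Hemgn* lay -0.16 from it. With quantile normalization the female difference was -0.36, and with normexp correction before it -0.32.

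**Figure D3:**
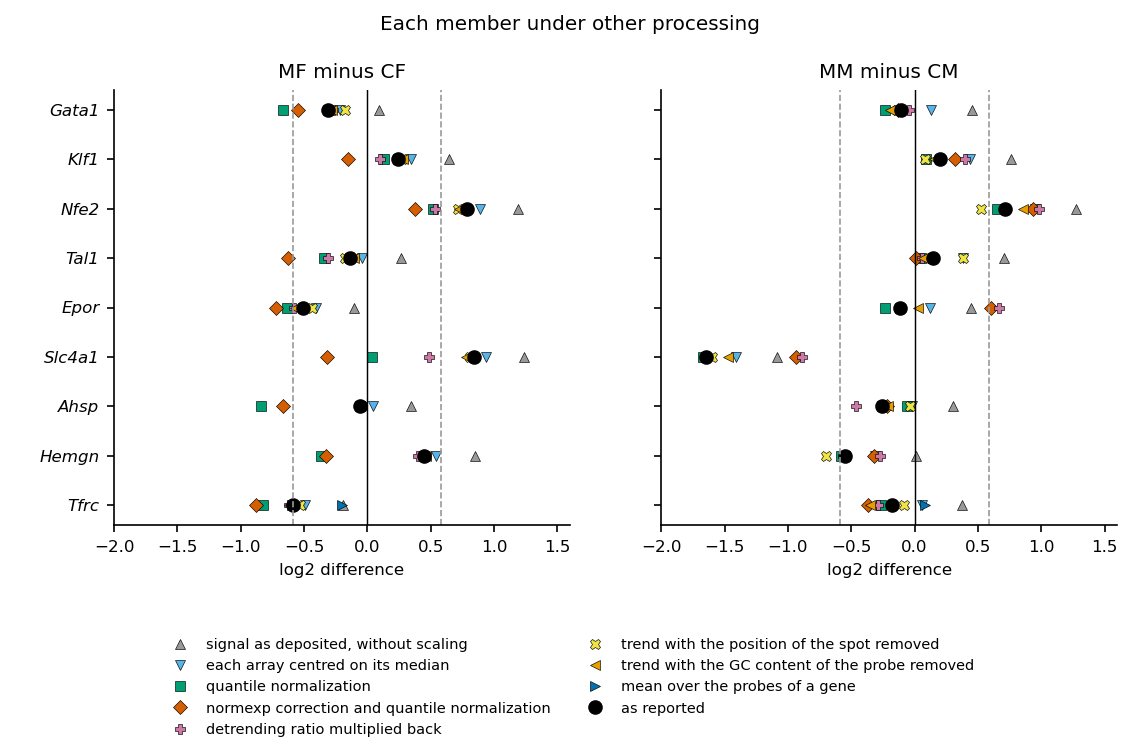
The log2 difference of each gene is plotted for MF minus CF (left) and MM minus CM (right) as reported (black) and under 8 other ways of processing (coloured symbols), with dashed lines at 1.5-fold. Nfe2 stays to the right of 0 in both panels, Slc4a1 stays left of the lower line in males, and in females Slc4a1 runs from -0.32 to 1.24.

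The methods also compared males with females within M and within C. These pairs share arrays with the pairs above. In CM vs CF, 4 of the 9 genes passed 1.5-fold, where 46.3% of 25204 genes did (26.6% higher and 19.7% lower on CM): *Slc4a1* was higher on CM, and *Gata1*, *Nfe2* and *Hemgn* were lower. In MM vs MF, *Gata1*, *Nfe2*, *Slc4a1* and *Hemgn* were lower on MM, where 49.5% of 26735 genes passed (28.9% higher and 20.5% lower on MM). *Hemgn* was 2.09-fold lower on CM than on CF and 4.17-fold lower on MM than on MF. It stayed past 1.5-fold lower under all 9 alternatives in both pairs, but the size changed. In MM minus MF it was -2.06 as scaled here and -1.29 with quantile normalization. In CM minus CF it ran from -1.69 to -0.85. *Gata1* was 1.83-fold lower on CM and 1.59-fold lower on MM, past 1.5-fold under 9 and 8 of 9 alternatives. *Slc4a1* was 3.61-fold lower on MM than on MF (-1.85), past 1.5-fold under all 9 alternatives. This difference was -1.13 with quantile normalization and -0.92 with normexp correction before it. The higher value of *Slc4a1* on CM than on CF (0.63) was past 1.5-fold under 3 of 9 and turned to -0.30 under 2 of them. *Nfe2* was past 1.5-fold under 7 of 9 in each pair. In MM minus MF it was -0.87 as scaled here, 0.10 with normexp correction and quantile normalization together and -0.09 with the detrending ratio multiplied back, and in CM minus CF it kept its sign under all 9. Both female arrays were above both male arrays for *Gata1*, *Nfe2*, *Epor* and *Hemgn*, 4 of 9, beside 19.5% of the 19303 genes, and below them for none of the 9, beside 23.5%. A litter, an animal or a row of the slide cannot be told apart from sex here, since the females lay in one row and the males in the other.

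Lists of related genes were set beside the members, each without them. Over all genes compared, 19.8% were past 1.5-fold higher and 21.1% lower in MF vs CF, and 17.7% and 23.1% in MM vs CM. The red cell membrane list of 22 other genes had a median of -0.01 in MF minus CF, with 2 genes past 1.5-fold higher and 4 lower, and of -0.39 in MM minus CM, with 1 higher and 8 lower, beside -0.08 and -0.03 over the 19303 genes. The lower *Slc4a1* on MM thus stood beside other membrane genes with a lower median than genes in general. *Tmod1*, which caps actin in the membrane skeleton, was at 0.22 on MM and 1.51 on CM, a difference of -1.29, and differed by -0.38 in females. The beta spectrin gene *Spnb1* was lower by -0.70 in males and -0.98 in females. Its probe was dim, at -3.07 on MM, -2.37 on CM, -3.32 on MF and -2.34 on CF. With normexp correction and quantile normalization together its differences were -0.67 in males and -0.37 in females. At the other end were *Stom*, the membrane protein stomatin (0.86 in females, -0.28 in males), and *Xk*, which carries the Kx antigen (0.90 and 0.20). With quantile normalization the median of the list was -0.45 in males and -0.40 in females, with normexp correction before it -0.54 and -0.35, and without scaling it was 0.17 and 0.40.

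The 20 other regulators had medians of -0.08 in females, 3 higher and 3 lower, and -0.11 in males, 1 higher and 6 lower. *Foxo3*, which guards maturing red cells from oxidative stress, was -0.86 in females and -1.37 in males, and *Runx1*, a factor of blood stem cells, -0.36 and -1.17. *Klf3*, which competes with KLF1 for its sites, was 1.25 in females and 0.30 in males. The 8 globin genes had medians of -0.49 and -0.43, with 2 and 3 genes past 1.5-fold lower and none higher. *Hbb-b1* was -0.68 in females and -0.86 in males and *Hbb-b2* 0.10 and -1.31, while the embryonic *Hbb-y* was 0.36 and -0.31. Near-identical globin copies may share signal on a probe, and under quantile normalization the male median was -0.04. The female median ran from -0.77 with quantile normalization to -0.09 without scaling. The male median ran from -0.60 with the detrending ratio multiplied back to 0.13 without scaling. Without scaling the medians of all genes were 0.32 and 0.53. The adult globins had mean levels of 8 to 12, and the 212 genes at these levels had medians of 0.56 in females and -0.32 in males.

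The 18 other genes of erythropoietin signalling, the hormone and the pathway downstream of *Epor*, had medians of 0.34 in females and 0.28 in males. The hormone gene was well above background on 2 arrays alone. It entered the female median as a bound and the male median not at all. In MF vs CF 8 passed 1.5-fold higher and 1 lower, and in MM vs CM 5 higher and 2 lower. Among them the STAT5 target *Pim1*, a survival kinase, was at 3.76 on MF and 2.03 on CF and at 2.12 on MM and 1.41 on CM, differences of 1.73 and 0.71. *Socs2*, a feedback inhibitor, differed by 0.96 and 1.22. *Jak2*, the kinase bound to the receptor, was lower by -0.30 and -1.29. Several of these genes serve other cytokines and hepatocytes too. The median stayed above 0 under all 9 alternatives, from 0.27 to 0.74 in females and from 0.22 to 0.81 in males. The highest values came without scaling, where the medians of all genes were 0.32 and 0.53.

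Haem and iron genes, 20 without *Tfrc*, had medians of 0.00 and -0.09, each with 4 genes past 1.5-fold higher and with 2 and 4 lower. *Cpox*, a late enzyme of haem synthesis, differed by 0.69 and 0.79. *Fam132b*, which encodes erythroferrone, the red cell hormone that lowers hepcidin, was at -1.44 on MF and -2.88 on CF and at -2.94 on MM and -3.83 on CM, 1.44 and 0.89 higher. *Ireb2*, an iron sensing RNA binding protein, was -1.51 in females and -0.01 in males, and *Steap3*, the endosomal iron reductase, -0.29 and -0.61. With normexp correction and quantile normalization together *Ireb2* was -0.76 in females and -0.17 in males. The 26 genes of late maturation had medians of -0.07 and -0.31, with 5 higher and 4 lower in females and 4 higher and 5 lower in males. *Slc14a1*, the urea transporter, was 0.53 and 1.74 and *Dnase2a*, the enzyme with which macrophages clear expelled nuclei, 1.0 and 0.70, while *Ypel4* was -0.87 and -0.51 and *Gmpr* -0.74 and -0.53.

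Neutrophil and macrophage markers were mostly higher on MF than on CF as scaled here. Of 10 neutrophil genes, 8 were past 1.5-fold higher on MF and none lower, beside 19.8% and 21.1% of all genes compared. The 10 had a median of 0.92 and a mean level of 6.57 on MF against 5.66 on CF, 5.61 on MM and 5.67 on CM. *Ngp* was 2.47 and *Elane* 1.95 higher on MF than on CF, whereas *Camp* was -0.38 and *Ctsg* -0.47. Of 11 macrophage genes 9 were higher and none lower, with a median of 0.74 and a mean level of 3.81 on MF against 3.01 on CF, 3.19 on MM and 3.08 on CM. *Csf1r* was 1.89 and *Clec4f* 0.93 higher, and *C1qb* and *C1qa*, the lowest of the list by the mean of both sexes, were 0.32 and 0.94 in females and -0.89 and -0.70 in males. In MM minus CM these 2 lists had medians of 0.06 and 0.01. With quantile normalization the female medians were 0.37 for neutrophils and 0.56 for macrophages. Most of the 8 neutrophil genes and some of the 9 macrophage genes then fell under 1.5-fold, a setting under which 38.8% of all genes passed. *Ngp* was 1.63, *Elane* 1.16, *Csf1r* 1.24 and *Clec4f* 0.83, while *C1qa* was 0.56, *C1qb* 0.17, *Camp* -1.14 and *Ctsg* -0.78. Most neutrophil genes had mean levels of 4 to 8, where the MF minus CF medians of all genes were 0.27 (4 to 6) and 0.60 (6 to 8). Every gene of both lists was well above background on all 4 arrays. Megakaryocytes express *Nfe2*, *Gata1* and *Tal1* as well, and the 9 megakaryocyte markers had medians of 0.16 and 0.28, with 2 and 1 past 1.5-fold higher and none lower. *Pf4* was 0.28 and 0.83, *Treml1* 0.65 and -0.04, *Gp1ba* -0.18 and -0.22 and *Gp1bb* 0.16 and -0.43. The part of these cells in the *Nfe2* and *Slc4a1* differences was not tested.

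Other cell types were checked by 4 more lists. The 9 markers of B cell precursors had medians of -0.01 and 0.26, the progenitor and mast cell markers 0.11 and 0.38, and the 6 endothelial markers -0.34 and -0.22. Among the B cell genes *Cd79a* was 1.07 and 0.56, *Vpreb1* 0.57 and -0.98, *Igll1* 0.93 and -1.79 and *Rag1* -0.60 and 1.57. Of the progenitor and mast cell genes, *Hdc* was 0.95 and 0.67, *Gata2* 0.41 and 0.09, *Cpa3* -0.63 and 0.71 and *Cd34* -1.05 and 0.08. The endothelial *Kdr* was -0.34 and 0.29, *Cdh5* -0.34 and 0.13, *Lyve1* -0.59 and -0.09 and *Pecam1* -0.34 and -0.50. The 14 hepatocyte markers had medians of -0.02 and -0.45, with 2 higher and 3 lower in females and 2 higher and 6 lower in males. As scaled here, the male hepatocyte median lay farther below that of all genes (-0.03) than the membrane median did (-0.39). This order did not allow for brightness. The male median was -0.32 over all genes with mean levels of 8 to 12, where the mean hepatocyte level lay. It was 0.10 over genes at 2 to 4, where the mean level of the membrane list with *Slc4a1* lay (2.54 on MM and 2.96 on CM). With quantile normalization the hepatocyte medians were -0.69 and -0.02, and the male order was reversed, with a membrane median of -0.45. *Tat*, an enzyme of tyrosine breakdown, was -1.69 in females and -0.14 in males, *Trf*, transferrin, -0.27 and -1.12, *Apob* 0.15 and 0.97 and *Hnf4a* 0.64 and 1.01. The mean hepatocyte level was 8.40 on MF, 8.60 on CF, 8.21 on MM and 8.49 on CM.

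**Figure D4:**
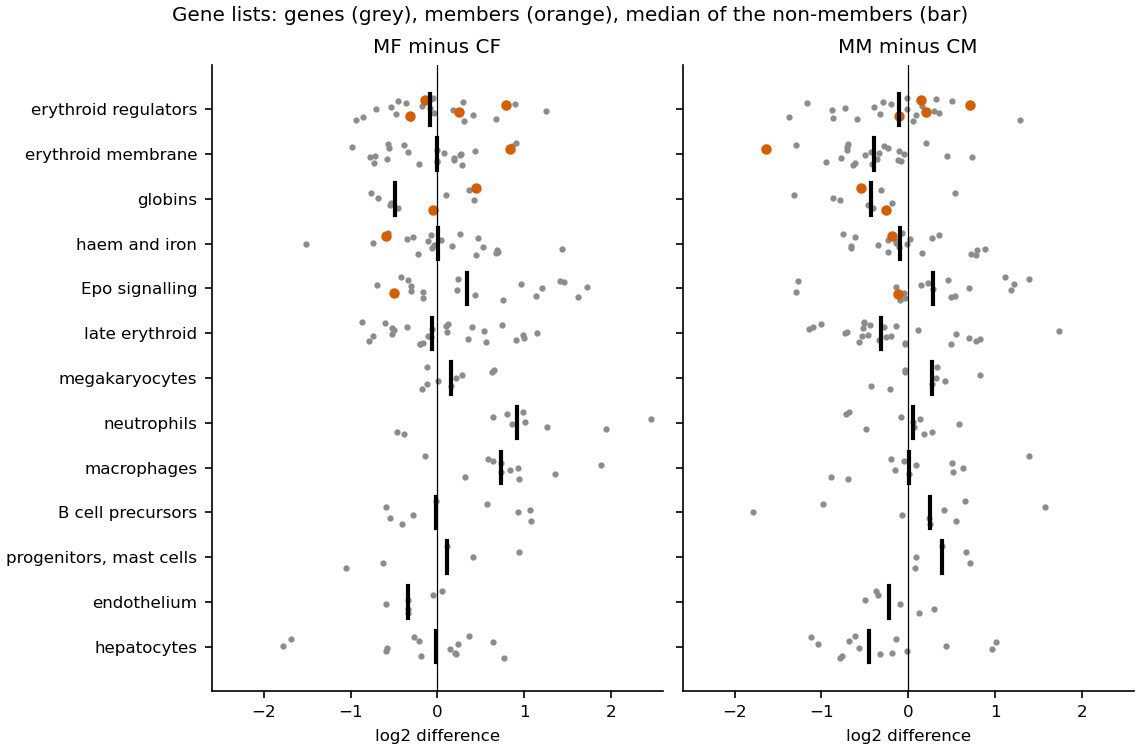
Each row is a list of genes, with a grey point for the log2 difference of each gene, orange points for members and a black bar at the median of the other genes, for MF minus CF (left) and MM minus CM (right). The neutrophil (0.92) and macrophage (0.74) bars lie to the right in females and near 0 in males, and the membrane bar lies at -0.39 in males.

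The mean profile of the 9 genes over the 4 arrays, each gene centred on its own mean, was 0.25 on MF, 0.16 on CF, -0.30 on MM and -0.11 on CM. Of 19294 other genes, those with the smallest root mean square distance from it over the 4 arrays were *Gpatch3* (0.019), *Snai1* (0.020), a probe without a gene name, *Tspan33* (0.024) and *Stxbp2* (0.026). The members themselves lay farther from their own mean, from 0.18 for *Ahsp* to 0.60 for *Hemgn*, so the mean stands for none of them closely. With 4 arrays such likeness is a description alone.

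RefSeq promoters (GRCm38.p6, 300 bases around a start site) were at hand for 6 of the 9 genes, 8 promoters in all, and were searched on both strands for motifs of the 4 factors among the members. AGATAA was in the promoters of *Epor*, *Hemgn* and *Tal1* and in 11.18% of 32851 promoters of this length, and TGATAA in those of *Hemgn* and *Klf1* and in 9.05%. These 2 letter strings are forms of the GATA motif. CAGCTG, an E-box, was in those of *Epor* and *Hemgn* (16.3% of all) and CATCTG in those of *Epor*, *Klf1* and *Tal1* (17.15%). CCACACCC, the KLF1 motif (3.56% of all), and TGAGTCA, the core of the NF-E2 motif (5.2%), were in none of the 8. A match is not a bound site. One GATA match per gene is given on the strand of the gene, with the match or its complement in capitals.
Epor (chr9:21963613-21963642, minus strand): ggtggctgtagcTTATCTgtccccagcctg
Hemgn (chr4:46404179-46404208, minus strand): acctgtgcagtgTGATAAagaaagtggaat
Klf1 (chr8:84901890-84901919, plus strand): tttgcctgggtcTTATCAgggaagacagcc
Tal1 (chr4:115056209-115056238, plus strand): ctatagagtcttTTATCTttgagcaattcc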

How the data were processed

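The authors labelled total liver RNA with Cy3 in 1 colour, hybridized it to Agilent arrays and read the scans with Agilent Feature Extraction (version 10.7.3.1, per the file headers). The deposited processed signal is a linear intensity, made by the software as the signal less a background and divided by a detrending ratio, which the authors deposited as well. The deposited values were not normalized between arrays, and the table of the series equals the processed signal. Probe positions are those of the annotation (mm9).

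In all, 1754 spots that carried an outlier flag on at least 1 array were dropped. The 75th percentile of non-control spots was subtracted from the log2 signal of each array, repeat spots were averaged, and the brightest probe stood for its gene. Genes well above background on at least 1 array of a pair were compared, and a difference against an array not well above background is a bound. The methods describe replicate experiments for each group, of which 1 array per group was analysed here, and this limits the precision. limma 3.58.1 in R 4.3.3 was fitted to the 19303 genes that were well above background on each array and tested on simulated data, where 182 of 200 genes changed by 4 log2 units were called, with 7 false calls.

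The members and lists were chosen with earlier results of these data known. Named are all members, of each list the 2 highest and 2 lowest genes by the mean of both differences among those well above background on all 4 arrays, and the 5 genes most like the mean member. The brightness classes, the C and T windows, the detrending ratio multiplied back and the alternatives for lists and for the pairs of sexes were chosen after seeing the data. Other alternatives were quantile normalization, normexp correction (offset 50) of the mean signal, which carries no detrending, followed by quantile normalization, centring on the median, no scaling, trends with spot position and GC content removed, the mean over probes, spots with an outlier flag kept, other filters on dim probes and a 2-fold threshold.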

Additional observations from a re-analysis of the deposited data

Results flagged for a closer look

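For 5 of the 63 named genes the M minus C difference was past 1.5-fold on opposite sides in the 2 sexes. The share of all genes that did so was not counted, while 40.9% passed 1.5-fold in MF vs CF and 40.8% in MM vs CM. Most of the 63 were picked by the mean of both differences, and list genes that are not named did the same. The count is thus no result about the named genes. The difference between the sexes was not tested in any of them, since each group is 1 array. For *Slc4a1*, MF minus CF exceeded MM minus CM by 2.48 (0.84 and -1.64). For *Igll1*, a surrogate light chain of B cell precursors, the gap was 2.72 (0.93 and -1.79). For *C1qa*, a complement gene of macrophages, it was 1.64 (0.94 and -0.70). *Rag1*, which cuts antigen receptor genes, ran the other way, with a gap of -2.17 (-0.60 and 1.57), as did *Cpa3*, a mast cell protease, with -1.33 (-0.63 and 0.71).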

How the results depend on the processing

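In MF vs CF the count of members past 1.5-fold was 0 at 2-fold (19.6% of all genes) and 1 with the detrending ratio multiplied back (47.1%), and their median was -0.55 with normexp correction and quantile normalization together and 0.35 without scaling. In MM vs CM the count was 4 without scaling (57.2% of all genes) and 1 at 2-fold (22.4%), and the median was 0.44 without scaling, a setting under which the median of all genes was 0.32 in females and 0.53 in males. Centring on the array median put it at 0.01 and 0.21, and the members at 0.04 and 0.12. In MF vs CF the directions also changed: with quantile normalization 4 members were past 1.5-fold (38.8% of all genes), *Gata1*, *Epor*, *Ahsp* and *Tfrc*, and with normexp correction before it 4 (30.5%), *Tal1*, *Epor*, *Ahsp* and *Tfrc*, all lower. At an adjusted p of 0.05, limma called 10 genes without scaling, 19 with the detrending ratio multiplied back and 0 under the other alternatives. The criterion of the methods, here an unadjusted limma p under 0.01 with a 1.5-fold difference, was met by 163 of 19303 genes. That criterion is not adjusted for the number of genes tested, so the 163 are not calls like the 10 and 19. *Slc4a1* turned to -0.32 in MF minus CF with normexp correction and quantile normalization together (0.04 with the latter alone), and in CM minus CF to -0.30 with both and -0.30 with the detrending ratio multiplied back. *Nfe2* turned to 0.10 in MM minus MF with both. The cause was not tested. Of the other values of single members, 271 moved by less than the SD of a single spot and 49 by more. The 271 include the values that could not move, those of the mean over probes for genes with 1 probe and of flagged spots kept. Of the list medians, 144 moved by less than the error that this SD gives a median of that many genes and 90 by more. No paired analysis was possible because the labels carry no replicate numbers and each group has 1 array, and for the same reason no replicate could be left out.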
